A study of Mus musculus with 11 samples.

Results

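The genes described here encode proteins of neutrophil granules together with the calgranulins of the neutrophil cytosol. They were chosen by name, as a list of 10: Ltf, S100a8, S100a9, Ngp, Camp, Mpo, Elane, Retnlg, Mmp8 and Mmp9. Of these, 9 had a probe set among the 14348 genes with one, each a single probe set, and Retnlg, a resistin-like gene, had none. Only 4 of the 9 (Ltf, S100a8, S100a9 and Mmp9) reached the level required for testing, a log2 value of at least 5 on at least 2 of 11 arrays, which 8082 genes reached. The 5 that did not reach it were Mmp8, Camp, Ngp, Mpo and Elane.

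The arrays measured lung RNA of Balb/c mice on a purified diet from 5 weeks of age. There were 3 arrays of total RNA from 4ebp1-/-/4ebp2-/- lungs (KO), 3 of total RNA from WT lungs, 3 of polysomal RNA from KO lungs and 2 of polysomal RNA from WT lungs. Both knocked-out genes encode repressors of the cap-binding factor eIF4E, and polysomal RNA was the pool of gradient fractions 7 to 10, transcripts carrying 3 or more ribosomes. Age at sampling, sex and the number of mice per RNA sample are not given in the labels, and the KO mice came from a donated line while the WT mice were bought, so genotype and source colony cannot be told apart. The labels also give each array a replicate set letter (A, B or C) without saying what it marks. Nothing in them says that arrays came from separate mice, so the p-values reflect array-to-array spread that may be technical in part. Of the targeted genes in total RNA, Eif4ebp2 was lower, at 2.61 to 3.26 on KO arrays, against 4.5 to 5.49 on WT arrays (difference -1.90, SE 0.25, limma adjusted p = 0.0016), and Eif4ebp1 had 7.92 to 7.94 on KO arrays, against 8.20 to 8.54 on WT arrays (difference -0.40, SE 0.11, adjusted p = 0.033), a call that no longer held once any of 5 arrays was dropped. The position of these probes relative to the deleted parts is not stated. Lung epithelium was represented on every array, with a list mean of 13.17 to 15.44 for 5 alveolar type 2 markers and 14.78 to 15.5 for 4 club cell markers.

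Neutrophils load their granules in waves while they mature in the bone marrow. Azurophil granules come first and hold myeloperoxidase (Mpo) and neutrophil elastase (Elane). Specific granules follow, with lactoferrin (Ltf), the cathelicidin precursor (Camp), neutrophilic granule protein (Ngp) and collagenase (Mmp8), and gelatinase granules with Mmp9 come last. The calgranulins S100a8 and S100a9 pair as calprotectin, a calcium- and zinc-binding complex that is very abundant in neutrophil cytosol and is also made by monocytes. Messages of azurophil and many specific granule proteins are largely gone from circulating neutrophils, while those of the calgranulins and of Cxcr2, a chemokine receptor that guides neutrophils, persist. Lactoferrin is also secreted by glandular epithelium, including that of airways. These genes can thus have more than 1 cell source in lung, and in bulk samples a change in the number of cells of a type and a change in RNA per cell cannot be told apart.

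The promoters of Ltf and of the calgranulin pair are shown because these genes had contrasting patterns over the arrays. Each runs from 250 bases before to 50 bases after the annotated start, 5′ to 3′, from RefSeq on GRCm38.p6. Of the 10 genes, 9 had a promoter in that table (Mmp9 had none). Capitals mark TTGCNNAA, a form of the sequence bound by C/EBP factors, searched on both strands, and TATAAA, searched on the sense strand.
Ltf promoter, chr9:111019042-111019341, plus strand: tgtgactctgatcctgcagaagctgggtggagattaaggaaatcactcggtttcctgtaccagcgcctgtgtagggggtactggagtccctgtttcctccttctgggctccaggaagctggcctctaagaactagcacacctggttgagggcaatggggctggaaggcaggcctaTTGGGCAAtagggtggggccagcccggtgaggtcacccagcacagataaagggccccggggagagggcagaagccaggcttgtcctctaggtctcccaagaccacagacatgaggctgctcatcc
S100a8 promoter, chr3:90668821-90669120, plus strand: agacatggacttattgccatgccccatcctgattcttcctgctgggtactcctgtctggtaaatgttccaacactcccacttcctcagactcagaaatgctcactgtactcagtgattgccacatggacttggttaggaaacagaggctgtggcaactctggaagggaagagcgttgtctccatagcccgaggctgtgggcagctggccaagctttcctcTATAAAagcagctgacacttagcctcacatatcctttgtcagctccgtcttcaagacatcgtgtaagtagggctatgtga
S100a9 promoter, chr3:90695672-90695971, minus strand: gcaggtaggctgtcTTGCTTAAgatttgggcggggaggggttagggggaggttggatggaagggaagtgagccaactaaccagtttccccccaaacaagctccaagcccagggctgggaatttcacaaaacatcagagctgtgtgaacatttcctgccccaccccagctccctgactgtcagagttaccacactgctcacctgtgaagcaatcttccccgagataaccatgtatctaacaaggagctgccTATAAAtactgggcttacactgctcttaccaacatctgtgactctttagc
The C/EBP letters began at position -75 from the start in Ltf and at -236 in S100a9, and were not in the S100a8 window. TATAAA began at position -30 in S100a8 and directly at the annotated start in S100a9, and was not in the Ltf window. The 2 motifs overlapped in none of these windows. Over 32851 promoters of the same length, 10.8% held the C/EBP letters and 8.32% held TATAAA. Among the other members Ngp held 2 C/EBP matches, Mmp8 and Retnlg 1 each, and Camp, Mpo and Elane none. In C/EBP epsilon-deficient mice specific granules fail to form, which is why this motif was searched. S100a8 and S100a9 lie beside each other on chromosome 3, and Ltf, Camp, Ngp and Mmp8 are all on chromosome 9.

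The first comparison asked which granule genes differed between KO and WT lungs in total RNA. Ltf was the only one of the 4 tested genes that did, and it was about 3-fold higher in KO. Its log2 values were 11.48, 11.30 and 11.79 on the KO arrays, against 9.78, 10.20 and 9.83 on the WT arrays. Every KO array lay above every WT array, with a gap wider than the spread within either group. The means were 11.52 ± 0.25 in KO and 9.94 ± 0.23 in WT (SD, n = 3 each), a difference of 1.59 (SE 0.19, limma adjusted p = 0.001). That call was kept when each of the 11 arrays was left out in turn. The 1 call of 4 tested genes stands beside 23.2% of all tested genes called in either direction and 17.2% called higher in KO, where the median difference over all genes was 0.09.

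**Figure D1:**
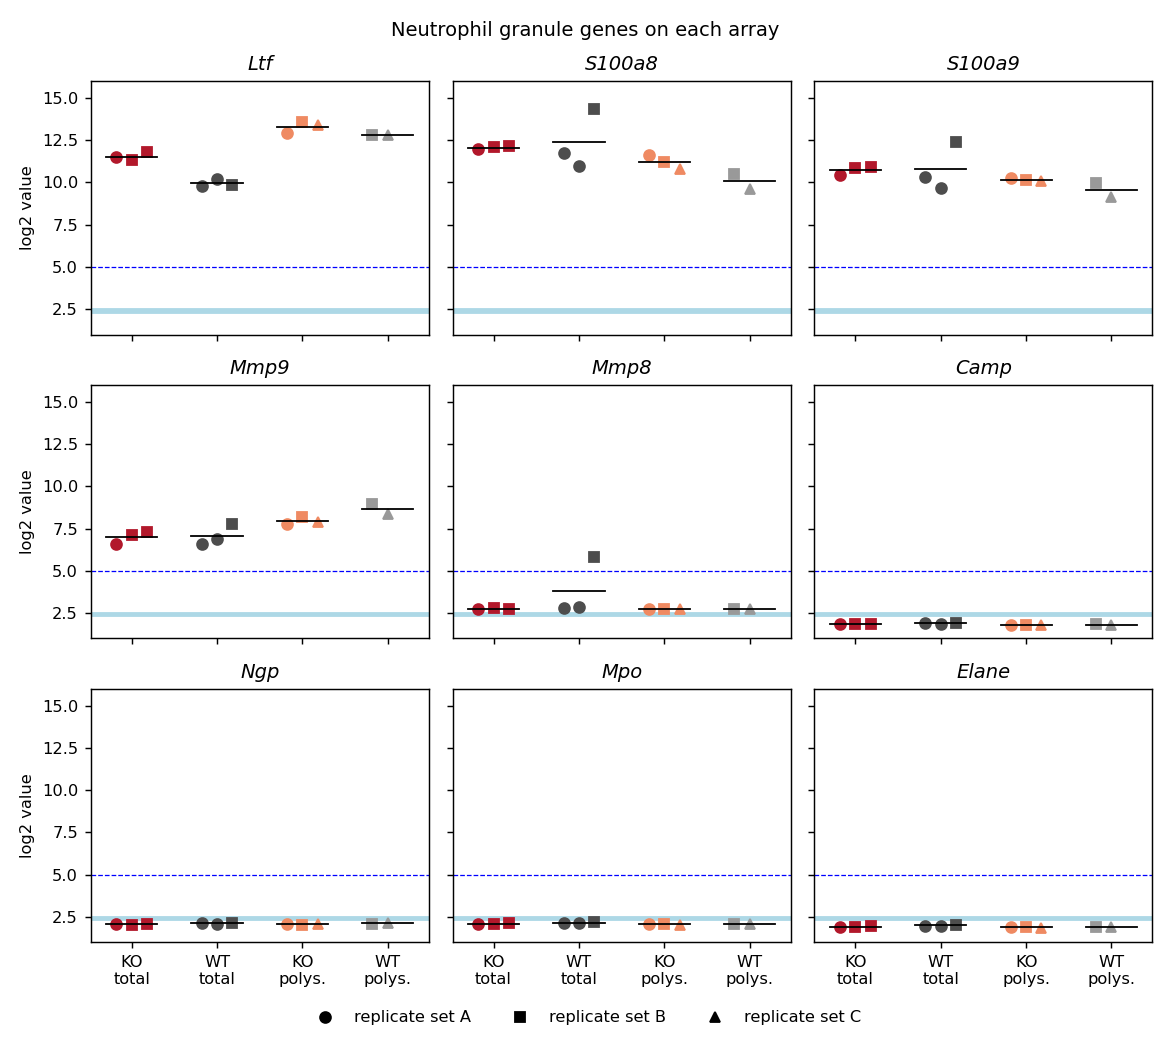
Log2 value of the 9 granule genes with a probe set on each of the 11 arrays, by group, on 1 shared vertical scale. Points are arrays, their shape gives the replicate set, horizontal bars are group means, the dashed line is the test minimum of 5 and the band spans the array medians (2.30 to 2.49) of probe sets below that minimum. Ltf separates KO from WT in total RNA, while 1 WT total array of set B stands above the other WT total arrays for S100a8, S100a9, Mmp9 and Mmp8.

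S100a8 did not pass the test in total RNA. It had 11.96, 12.09 and 12.14 on the KO arrays, against 11.75, 10.98 and 14.37 on the WT arrays. The KO arrays lay close together and between the WT values, of which replicate 3 was far above the other two. The means were 12.06 ± 0.09 in KO and 12.37 ± 1.78 in WT (SD, n = 3 each), and the difference was -0.30 (SE 0.70, limma adjusted p = 0.8). Without WT total replicate 3 it was 0.70 (SE 0.33, adjusted p = 0.15), so 1 array set the sign.

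S100a9, the partner of S100a8, showed the same layout. Its values were 10.45, 10.85 and 10.91 in KO, against 10.35, 9.68 and 12.40 in WT. The groups overlapped only through WT replicate 3, since each KO array exceeded WT replicates 1 and 2. The difference was -0.07 (SE 0.56, limma adjusted p = 0.95) with all arrays and 0.73 (SE 0.27, adjusted p = 0.081) without that array. Neither calgranulin therefore passed the test with or without it.

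Mmp9, the gelatinase B of gelatinase granules, had 6.61, 7.12 and 7.30 in KO, against 6.61, 6.86 and 7.78 in WT. The groups overlapped, and WT replicate 3 was again the highest of the 6. The difference was -0.08 (SE 0.30, limma adjusted p = 0.89), and 0.27 (SE 0.24, adjusted p = 0.45) without WT replicate 3.

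Mmp8, the neutrophil collagenase, was near background on every array but that one. It had 2.76, 2.77 and 2.73 in KO total RNA, against 2.78, 2.83 and 5.80 in WT total RNA, and 2.74 to 2.76 on all 5 polysomal arrays. With only 1 array above the minimum it was not tested.

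The remaining 4 genes stayed low on all 11 arrays. Camp ranged from 1.80 to 1.90, Elane from 1.87 to 2.0, Ngp from 2.02 to 2.14 and Mpo from 2.04 to 2.19. These values lie under the 2.30 to 2.49 that were the array medians of all probe sets below the minimum. Thus no signal of these azurophil and specific granule genes was detectable here, in WT total replicate 3 or elsewhere. Whether these probe sets can detect their messages was not tested, and the integrin gene Itgam was also near background, at 2.27 to 2.41. On the list of other azurophil genes, the protease genes Prtn3 and Ctsg were likewise no higher than 2.28. The third with a probe set was Serpinb1a, which encodes a protease inhibitor rather than a granule protease. It was at 8.58 to 9.03 and did not pass (difference -0.10).

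**Figure D2:**
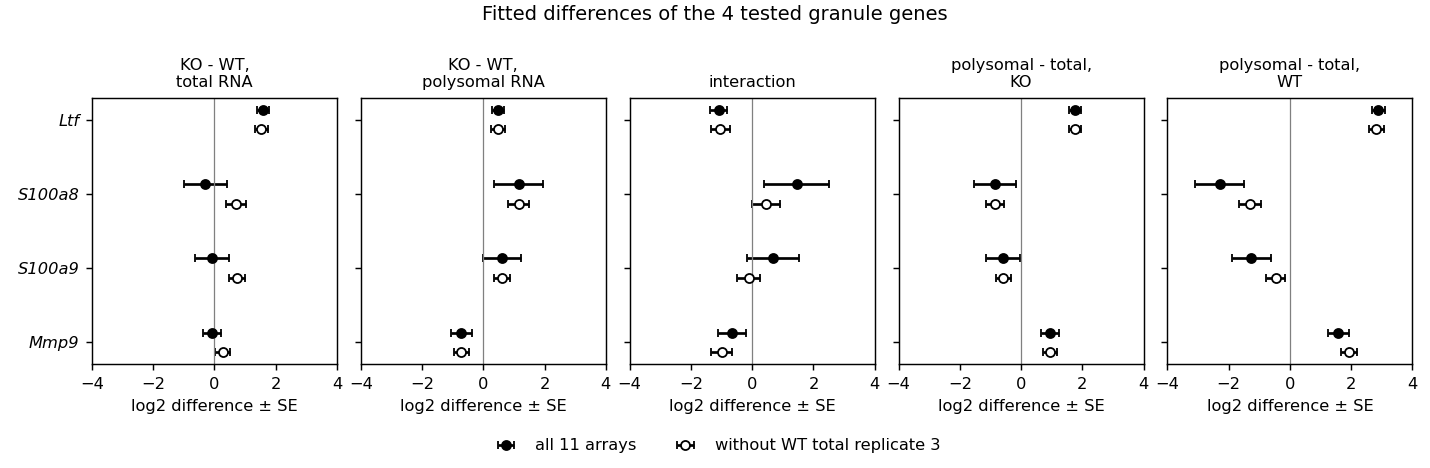
Log2 differences (horizontal axis, with the SE of the fit as bars) of the 4 tested granule genes in 5 contrasts, from all 11 arrays (filled) and without WT total replicate 3 (open). In total RNA Ltf stays at 1.59 and 1.53, while S100a8 is at -0.30 and 0.70 and S100a9 at -0.07 and 0.73.

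WT total replicate 3 differed from WT replicates 1 and 2 in an arrangement that included the calgranulins but not Ltf. S100a8 was 3.01 above the mean of the other two, Mmp8 2.99, S100a9 2.39 and Mmp9 1.05, while Ltf was at -0.16. Among all 8082 tested genes only 2 had a larger gap than S100a8 and 6 a larger gap than S100a9, and the median gap was -0.05. A gap over 1 was found for 87 genes, 1.08% of those tested. The other listed genes with the widest upward gaps, picked out after their values were seen, were Cxcr2 (3.13), the stefin-type protease inhibitor gene Stfa2l1 (2.62), the cytokine gene Il1b (2.34) and the myeloid transcription factor gene Spi1 (1.31). The widest downward gaps among listed genes were those of Jchain (-2.13), which encodes the joining chain of antibodies, and the surfactant gene Sftpc (-1.81). Cxcr2 had 7.16, 7.43 and 7.70 in KO total RNA, against 6.86, 6.97 and 10.04 in WT total RNA.

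Other marker lists also differed on this array. Of 24 listed neutrophil receptor and surface genes 20 had a probe set and 12 were tested. WT replicate 3 was the highest WT total array for 8 of the 12, against 35.3% of all genes, and the lowest for 3. Their mean level per array ran from 8.58 to 8.88 in KO and was 8.53, 8.36 and 9.26 in WT. The 8 below the minimum, among them the integrin gene Itgam and Trem1, were no higher than 3.87 on any array. All 4 tested monocyte markers, of 8 listed, were highest there too, with a list mean of 8.07 to 8.16 in KO, against 7.80, 7.70 and 8.40 in WT. Of the 5 tested alveolar type 2 markers, 4 were lowest there among WT total arrays, beside 3715 of all 8082 tested genes. Their list mean was 13.94 to 14.03 in KO, against 13.48, 13.65 and 13.17 in WT. The gap to WT replicates 1 and 2 was -1.81 for Sftpc and 0.44 for Sftpb, with a list median of -0.23. Of the 8 tested alveolar macrophage markers 6 were lowest and 1 highest on this array among WT total arrays, with a median gap of -0.31 (list mean 10.19 to 10.43 in KO, against 10.79, 10.64 and 10.52 in WT). Both tested red cell precursor markers and both platelet markers were highest there among WT total arrays, as were 2 of 3 natural killer cell, 1 of 2 T cell and 3 of 4 B and plasma cell markers, the exception being Jchain. Of the 4 club cell markers 3 were lowest there, and of the 6 endothelial markers 2 were highest and 2 lowest. No eosinophil or mast cell marker was tested, and their highest values were 2.86 and 4.35. The part of these cell types in the calgranulin values was not tested.

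**Figure D3:**
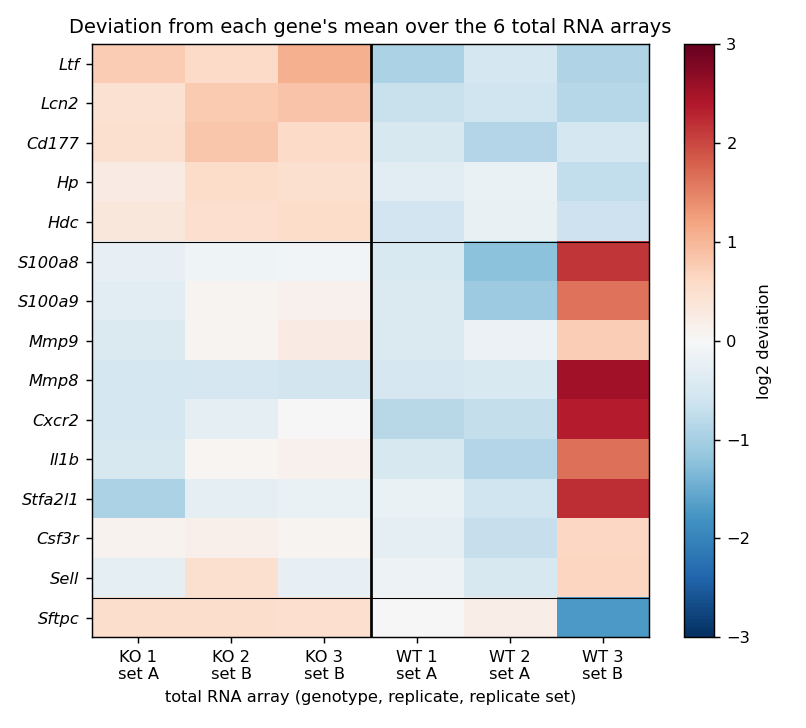
Deviation (log2, colour) of each gene from its own mean over the 6 total RNA arrays, which run from KO on the left to WT on the right with their replicate sets. The upper 5 genes, led by Ltf, are above their mean on all KO arrays and below it on all WT arrays, the next 9, led by S100a8, are highest on WT replicate 3, and the surfactant gene Sftpc is lowest there. The genes were selected and grouped by these patterns, and listed genes that follow neither, such as Chil3 and Fpr1, are not shown.

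The replicate sets gave opposite directions for the calgranulins. In set A, with 1 KO and 2 WT total arrays, S100a8 was 0.60 higher in KO and S100a9 0.44 higher. In set B, with 2 KO arrays and only WT replicate 3, the differences were -2.26 for S100a8 and -1.52 for S100a9. Ltf did not turn, with 1.49 in set A and 1.72 in set B. Mmp9 had -0.13 in set A and -0.57 in set B. Since the WT side of set B was this single array, set and array cannot be told apart.

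Ltf did not stand alone among the granule genes. Of the 12 other specific and gelatinase granule genes on the list, 10 had a probe set and 8 were tested in total RNA: 3 rose, 1 fell and 4 did not pass, with a median of 0.21. Among all 8082 tested genes 1392 rose and 483 fell, the background for every list count in this paragraph that uses all arrays. Lipocalin 2 (Lcn2), which binds bacterial siderophores, had 11.90, 12.23 and 12.29 in KO, against 10.78, 10.84 and 10.59 in WT. Its difference was 1.40 (SE 0.13, limma adjusted p = 0.00037). Cd177, a surface protein of the same granules, was at 4.87, 5.24 and 4.98 in KO, against 3.91, 3.51 and 3.88 in WT (difference 1.26, SE 0.19, adjusted p = 0.0024). Its WT values were close to the 90th percentile of probe sets below the minimum on those arrays (3.65 to 3.78), so its differences against WT total RNA are read as lower bounds. For haptoglobin (Hp), which binds free haemoglobin, the difference was 0.85 (SE 0.13, adjusted p = 0.0031). In all of these every KO array was above every WT array, and WT replicate 3 was not raised. Lcn2 and Hp are also made by lung epithelium. Beside these genes, 2 of 5 tested alveolar type 2 markers rose and 0 fell (list mean 13.94 to 14.03 on KO arrays, against 13.17 to 13.65 on WT arrays), 1 of 4 club cell markers rose and 0 fell (15.06 to 15.15 in KO, against 14.78 to 15.02 in WT) and 4 of 6 endothelial markers rose and 0 fell (8.54 to 8.83 in KO, against 7.83 to 7.87 in WT). Without WT total replicate 3, 4 of the 5 alveolar type 2 markers rose and 4 of 6 endothelial markers did, beside 1462 of all 8056 genes tested in that fit. The part of these cell types in the differences of Ltf, Lcn2, Cd177 and Hp was not tested. The granule gene that fell was Chil3, a chitinase-like protein that alveolar macrophages make as well (difference -0.63, SE 0.15, adjusted p = 0.017), and its call no longer held once any of 3 arrays was dropped. Beside it, 4 of 8 tested alveolar macrophage markers, Chil3 among them, fell and 1 rose. The 4 granule genes that did not pass were the oxidase subunit gene Cybb (0.08), the metal transporter gene Slc11a1 (-0.13), the peptidoglycan-binding Pglyrp1 (0.35) and the protease gene Adam8 (-0.54).

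Genes for neutrophil recruitment and function are given beside the 23.2% of all tested genes called in total RNA, or 26.8% without WT total replicate 3. Of the 12 tested receptor and surface genes 2 rose, 0 fell and 10 did not pass (median -0.06). The 2 were the histidine decarboxylase gene Hdc (0.93, SE 0.17, limma adjusted p = 0.0058), also a mast cell and basophil gene, and the integrin gene Itgb2 (0.50, SE 0.15, adjusted p = 0.039), whose call no longer held once any of 7 arrays was dropped. Of 7 NADPH oxidase genes, Cyba alone rose (1.05, SE 0.17, adjusted p = 0.0036), and it is expressed far beyond phagocytes. None of 4 tested granulocyte transcription factor genes (Cebpa, Cebpb, Cebpd, Spi1) passed in limma, and 0 had an unadjusted p under 0.05. Leaving out WT total replicate 3 moved several of these, and counts over the lists in that fit were added after the data were seen. Spi1 was then called (0.84, SE 0.17, adjusted p = 0.0096, against 0.40 with all arrays), as were the receptor genes Csf3r (0.61, SE 0.13, adjusted p = 0.011) and Selplg (0.60, SE 0.13, adjusted p = 0.011) and the proton channel gene Hvcn1 (0.36, SE 0.12, adjusted p = 0.048). In that fit 3 of 12 receptor and surface genes, 2 of 7 oxidase genes and 1 of 4 transcription factor genes rose and 0 of each list fell, while Itgb2 was not called (0.41, SE 0.16, adjusted p = 0.091). Of 8 tested attractants and growth factors, the lung epithelial chemokine gene Cxcl15 rose (0.43, SE 0.07, adjusted p = 0.004), the platelet chemokine gene Ppbp fell (-0.87, SE 0.28, adjusted p = 0.049, not held once any of 9 arrays was dropped) and 6 did not pass. Of 9 tested protease inhibitors 3 rose and 0 fell, namely the metalloproteinase inhibitor genes Timp2 (0.67, SE 0.10, adjusted p = 0.002) and Timp1 (0.98, SE 0.30, adjusted p = 0.041) and Serpina3n (1.38, SE 0.35, adjusted p = 0.02). Timp1, which inhibits Mmp9, was not called once any of 7 arrays was dropped, nor Serpina3n once any of 3 was.

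The wider families of the members were read the same way. Of 7 other tested S100 genes 4 rose and 0 fell (median 0.37), S100a1 with the largest difference (0.70, SE 0.11, limma adjusted p = 0.0035). With 1 array left out 1 to 3 of the 7 rose, the calls of S100a10, S100a13 and S100a16 being lost in 5, 6 and 10 of the 11 fits. Of 7 calprotectin receptor and co-receptor genes, the receptor genes Bsg (1.22, SE 0.17, adjusted p = 0.0019) and Ager (0.41, SE 0.07, adjusted p = 0.0045) rose, Ager being abundant in alveolar type 1 cells, and the other 5, Tlr4 included, did not pass. Of 7 other tested matrix metalloproteinase genes 3 rose and 0 fell (median 0.44), and 1 to 4 rose with 1 array left out. The only tested relative of Retnlg was Retnla, at 12.89, 12.43 and 12.35 in KO, against 11.81, 10.91 and 10.39 in WT, where the difference of 1.52 (SE 0.42, adjusted p = 0.029) was no longer called once any of 5 arrays was dropped.

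The second comparison asked the same of polysomal RNA, the messages engaged by several ribosomes. None of the 4 tested genes passed, beside 15.1% of all tested genes called and a median of -0.01 over all genes. At an unadjusted p under 0.05, limma's count was 1, Ltf. It had 12.91, 13.57 and 13.42 in KO, against 12.83 and 12.81 in WT. Every KO array was above both WT arrays, but the lowest by little, and the difference was 0.48 (SE 0.21, limma adjusted p = 0.16).

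The calgranulin differences had the same sign as that of Ltf, and neither passed. S100a8 had 11.63, 11.20 and 10.80 in KO, against 10.52 and 9.60 in WT, without overlap, and a difference of 1.15 (SE 0.79, limma adjusted p = 0.37). S100a9 had 10.26, 10.16 and 10.07 in KO, against 9.97 and 9.13 in WT, also without overlap, and a difference of 0.61 (SE 0.63, adjusted p = 0.57). The SE is pooled over all 4 groups, so WT total replicate 3 enters it although it is not a polysomal array. Without that array the S100a8 difference was the same 1.15 with an SE of 0.33 (adjusted p = 0.041), which passed, beside 20.5% of all tested genes called in that fit, and S100a9 did not pass (SE 0.27, adjusted p = 0.15).

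The Mmp9 difference had the opposite sign. It had 7.77, 8.16 and 7.90 in KO polysomal RNA, against 8.97 and 8.36 in WT polysomal RNA, with every KO array below both WT arrays. The difference was -0.72 (SE 0.34, limma adjusted p = 0.19), and without WT total replicate 3 the adjusted p was 0.066. Within set B alone it was -0.81 and within set C -0.46, each from 1 array per genotype.

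In the other granule genes, 1 of 8 rose and 1 fell in polysomal RNA. The list counts of this paragraph stand beside 15.1% of all tested genes called, or 20.5% without WT total replicate 3. Lcn2 was 0.56 higher (SE 0.15, limma adjusted p = 0.034), which no longer held once any of 4 arrays was dropped, and Chil3 differed by -0.89 (SE 0.17, adjusted p = 0.0095), not called without WT polysomal replicate 2. Cd177 (0.16, SE 0.21) and Hp (0.04, SE 0.15) did not pass. None of the 12 receptor and surface genes passed in limma, with 2 at an unadjusted p under 0.05, the Fc receptor genes Fcgr3 (-0.28) and Fcgr4 (-0.75). Without WT total replicate 3, 2 of the 12 fell, Fcgr4 with an adjusted p of 0.031, and among the granule genes Pglyrp1 also rose (0.86, adjusted p = 0.027). Of 4 granulocyte transcription factor genes Cebpb, which takes part in emergency granulopoiesis, fell (-0.68, SE 0.09, limma adjusted p = 0.0026). Its polysomal values were 5.03, 5.07 and 5.04 in KO, against 5.82 and 5.63 in WT, all close to the test minimum of 5.

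The interaction asked whether the KO minus WT difference was itself different in polysomal and in total RNA. Ltf was the 1 member called, beside 22.3% of all tested genes, with a difference of 0.48 in polysomal and 1.59 in total RNA. The interaction was -1.10 (SE 0.29, limma adjusted p = 0.025), against a median of -0.13 over all genes. It was -1.05 (SE 0.31, adjusted p = 0.038) without WT total replicate 3, and the call was lost without WT total replicate 1 (adjusted p = 0.056), KO total replicate 3 (0.051) or either WT polysomal array (0.068 and 0.069). It was also lost with the set letter as a replicate block (0.075), with that block within RNA kind (0.066) and with no filter on low values (0.054). Lcn2 (-0.84, SE 0.20, adjusted p = 0.019), Cd177 (-1.10, SE 0.28, adjusted p = 0.024, with WT total values near background) and Hp (-0.81, SE 0.20, adjusted p = 0.022) were called in the same direction, each losing its call without 1 to 3 of the arrays, and 0 of the 8 other granule genes were called upward. In this contrast 2 of 5 alveolar type 2 markers and 3 of 6 endothelial markers were also called negative, beside 14.2% of all tested genes. Without WT total replicate 3 this was 4 of 5 and 3 of 6, beside 15.9% of all. Their part in the Ltf value was not tested. Hp was at 15.52 to 15.57 on all 5 polysomal arrays, and the highest value of any probe set in the table was 16.7. For S100a8 (1.45, SE 1.06, adjusted p = 0.35), S100a9 (0.68, SE 0.84, adjusted p = 0.6) and Mmp9 (-0.65, SE 0.46, adjusted p = 0.34) the interaction did not pass. Without WT total replicate 3 these were 0.45, -0.11 and -1.0 (adjusted p = 0.51, 0.86 and 0.061).

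The last comparisons set polysomal against total RNA within a genotype, each array being made from 100 ng of RNA, so a difference is a shift relative to the other messages on the array. Ltf was higher on polysomes in both genotypes. In KO its mean was 13.30 ± 0.35 in polysomal and 11.52 ± 0.25 in total RNA (SD, n = 3 each), a difference of 1.77 (SE 0.19, limma adjusted p = 2.6e-05). In WT it was 12.82 ± 0.01 in polysomal (n = 2) and 9.94 ± 0.23 in total RNA (n = 3), a difference of 2.88 (SE 0.21, adjusted p = 1.4e-06). The levels thus ordered as KO polysomal, WT polysomal, KO total and WT total, with no array of one RNA kind overlapping the other. The 2 polysomal groups did not differ by the test, the 2 total groups did, and WT polysomal was not tested against KO total. Such shifts were common: 65.2% of all tested genes were called in KO and 72.4% in WT, with medians of 0.13 and 0.22.

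Mmp9 was also higher on polysomes. The difference was 0.94 in KO (SE 0.30, limma adjusted p = 0.021) and 1.58 in WT (SE 0.34, adjusted p = 0.0019). All 5 polysomal arrays, at 7.77 to 8.97, lay above the total RNA arrays except that WT total replicate 3, at 7.78, just passed the lowest. Its means were 7.94 in KO and 8.67 in WT polysomal RNA and 7.01 in KO and 7.08 in WT total RNA, so it was highest in WT polysomal RNA, and in neither RNA kind did the genotypes differ by the test. The KO call was lost without KO total replicate 1 (0.74, adjusted p = 0.085) or KO polysomal replicate 2 (0.83, adjusted p = 0.072).

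The calgranulins ran in the opposite direction. S100a8 was lower on polysomes in WT by 2.30 (difference -2.30, SE 0.79, limma adjusted p = 0.023), with means of 10.06 ± 0.65 in polysomal (n = 2) and 12.37 ± 1.78 in total RNA (n = 3). Both WT polysomal arrays lay below all WT total arrays, and the difference was -1.30 (SE 0.36, adjusted p = 0.0099) without WT total replicate 3. It was not called without WT polysomal replicate 2 (-1.84, adjusted p = 0.15). In KO the S100a8 difference was -0.85 (SE 0.70, adjusted p = 0.32), with all 3 polysomal arrays below all 3 total RNA arrays. Without WT total replicate 3 the SE was 0.30 and the adjusted p 0.03, a call beside 68.1% of all tested genes in that fit. For S100a9 the difference was -0.58 in KO (SE 0.56, adjusted p = 0.39) and -1.26 in WT (SE 0.63, adjusted p = 0.096), and neither passed. S100a8 means were 11.21 in KO and 10.06 in WT polysomal RNA and 12.06 in KO and 12.37 in WT total RNA. Those of S100a9 were 10.16 in KO and 9.55 in WT polysomal RNA and 10.74 in KO and 10.81 in WT total RNA, the same order. Neighbours in this order did not differ by the test with all arrays in the fit, and the first place of WT total RNA rested on its replicate 3.

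**Figure D4:**
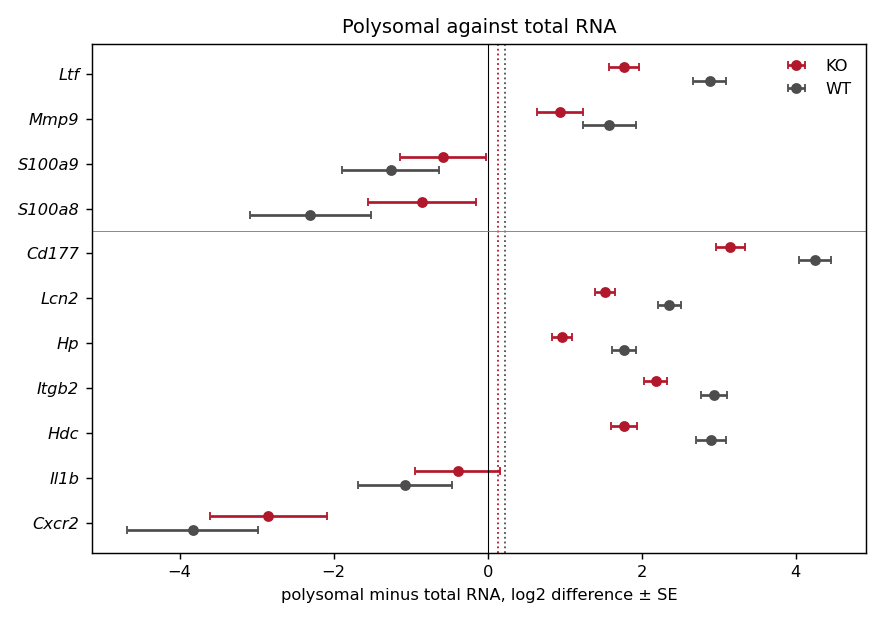
Polysomal minus total RNA (log2 difference, bars are the SE of the fit) in KO and WT lungs for the 4 tested granule genes, above the grey line, and for 7 other neutrophil-related genes, with dotted lines at the medians over all tested genes (0.13 in KO and 0.22 in WT). Ltf and Mmp9 lie to the right of 0 in both genotypes, S100a8, S100a9 and Cxcr2 to the left. The 7 other genes were picked by hand, and further listed genes, such as Fpr1 and Csf3r, are not shown.

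Other neutrophil-related genes were called in both directions, as all tested genes were. Of all genes, 39.5% were called higher and 25.7% lower on polysomes in KO, and 44.5% higher and 27.9% lower in WT. Of the 8 tested specific and gelatinase granule genes 6 were higher on polysomes in KO and 6 in WT and none was lower, with Cd177 higher by 3.15 in KO (SE 0.19) and by at least 4.25 in WT (SE 0.21), its WT total values being near background. Of the 12 receptor and surface genes 5 were higher and 1 lower in KO, and 5 were higher and 2 lower in WT. The chemokine receptor genes Cxcr2 and Cxcr4 were the 2 lower in WT, and Cxcr2 the 1 in KO. Cxcr2 was at -2.85 in KO (SE 0.76, limma adjusted p = 0.0078) and -3.83 in WT (SE 0.85, adjusted p = 0.0022), and in WT it was -2.79 without WT total replicate 3. Its polysomal values were 4.98, 3.57 and 5.2 in KO and 4.13 and 4.13 in WT, mostly under the test minimum of 5. On those arrays the 90th percentile of probe sets below the minimum was 3.4 to 3.51. Only the 3.57 of KO polysomal replicate 2 was close to that level, so the size of the Cxcr2 differences is read with caution. Il1b did not pass, at -0.39 in KO (SE 0.55) and -1.07 in WT (SE 0.61).

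Within groups, the calgranulins varied together over the arrays and Ltf did not follow them. Taking each array's deviation from its group mean, Pearson's r over the 11 arrays was 0.98 between S100a8 and S100a9, 0.83 between S100a9 and Mmp9 and 0.76 between S100a8 and Mmp9. Between Ltf and these genes it was -0.37 for S100a8, -0.28 for S100a9 and 0.18 for Mmp9. These are descriptions without a test, since arrays of a group share their mean and 1 array dominates: WT total replicate 3 deviated by 2.01 for S100a8, 1.59 for S100a9 and 0.70 for Mmp9. Over the other 10 arrays r was 0.87 between S100a8 and S100a9, 0.54 between S100a9 and Mmp9 and 0.25 between S100a8 and Mmp9, and for Ltf it was -0.50 with S100a8, -0.25 with S100a9 and 0.50 with Mmp9. The tested genes whose deviations were most like the mean profile of the 4 members were Igsf6 (r = 0.99), Smpdl3b and Cd151 (0.96 each), Tlr6, Spn, Sdc4 and Slc9a3r1 (0.95 each) and Cep131 (0.94). Over the 10 arrays without WT total replicate 3 these ran from 0.61 for Cep131 to 0.94 for Sdc4. Igsf6 had 5.93, 6.19 and 6.73 in KO total RNA, against 6.56, 6.81 and 8.13 in WT total RNA, so it too was highest on that array.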

How the data were processed

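Lung RNA was measured on 11 one-colour Affymetrix arrays. The authors deposited 1 log2 value per probe set and array (0.73 to 16.7). These came from GCRMA, a background correction, normalization and probe summary, per the submitters' processing notes. Its version, the probe grouping and the genome build are not given in the sources used here. A kit with 2 amplification cycles labelled 100 ng of each RNA, per the labels' protocols. Probe set names were matched by accession to NCBI RefSeq (GRCm38.p6) for 15225 of 26180 probe sets, 10955 had no name, and each gene was read from its brightest probe set by mean value. In all, 7538 rows repeated another row exactly.

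limma 3.58.1 in R 4.3.3 (lmFit, eBayes) fitted 1 mean per group over all 11 arrays (7 residual degrees of freedom, prior 2.67) to the 13802 probe sets at a log2 value of at least 5 on at least 2 arrays. Two-sided p-values were Benjamini-Hochberg adjusted over these, with 0.05 as the threshold. The script was tested on simulated data. The number of arrays limits the precision. Alternatives were other filters, normalizations and moderation, groups fitted alone, a replicate block on the set letter, and each array left out.

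The members and gene lists were chosen with earlier results of these data known. Named from each other list were up to 3 tested genes per contrast with the smallest p among those called; all members and the targeted genes are named, and further genes are named where the text says why. Whether the replicate set letters pair the arrays was not settled. Deviations from group means of arrays with the same letter and RNA kind correlated at -0.06 to 0.10 (6 pairs). Those with different letters and the same RNA kind correlated at -0.10 to 0.05 (9 pairs). Across RNA kinds the range was -0.17 to 0.31 with the same letter (9 pairs) and -0.23 to 0.31 with different letters (21 pairs). Deviations cancel within groups this small, so these correlations cannot exclude pairing.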

Additional observations from a re-analysis of the deposited data

Results flagged for a closer look

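The KO minus WT difference of Ltf was 1.10 smaller in polysomal than in total RNA (interaction -1.1, SE 0.29, limma adjusted p = 0.025), and it was no longer called once any of 4 arrays was dropped, with the set letter as a replicate block (adjusted p = 0.075, or 0.066 within RNA kind) or with no filter (0.054). The calgranulins moved in opposite directions between the replicate sets of total RNA. S100a8 was 0.60 higher in KO in set A, above both WT arrays there, and differed by -2.26 in set B, where both KO arrays lay below the single WT array. S100a9 had 0.44 in set A and -1.52 in set B. The differences between the sets were not tested.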

How the results depend on the processing

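The Ltf call in total RNA was kept under every alternative run. When 1 array was left out, the number of the 4 tested genes called ran from 0 to 1 in polysomal RNA and for the interaction. It ran from 1 to 3 for polysomal minus total RNA in KO. With all arrays, 15.1%, 22.3% and 65.2% of all tested genes were called in these contrasts, in that order. Without a filter on low values 2 genes with a probe set were called in total RNA (the second, Elane, at -0.06 and at background), 0 for the interaction (Ltf adjusted p = 0.054 in limma), 6 for polysomal minus total RNA in WT (with Camp, Mpo and Elane at background) and 1 in KO. Of all 14348 genes without the filter, 1560 were higher and 2655 lower in total RNA, and 591 and 946 for the interaction. For polysomal minus total RNA 3874 were higher and 6483 lower in WT, and 3204 and 2623 in KO. With only the groups compared in the fit, 4 members were called for polysomal minus total RNA in KO. S100a8 lost its WT call there (limma adjusted p = 0.11). Of all 8082 genes, 3345 were then higher and 2125 lower in KO, and 3329 and 2021 in WT. With the set letter as a replicate block 0 members were called for the interaction (Ltf -0.99, limma adjusted p = 0.075). With the replicate block within RNA kind likewise 0 members were called for it (Ltf -0.92, limma adjusted p = 0.066). Of all 8082 genes, 469 were higher and 820 lower for the interaction under the first block, and 443 and 735 under the second. That second block takes up the shift between RNA kinds, so polysomal minus total RNA cannot be read from it. In the comparisons that can be read, no other member call changed under either block. Differences in total RNA over the fits with 1 array left out ran from -1.0 to 0.70 for S100a8, -0.63 to 0.73 for S100a9 and -0.31 to 0.27 for Mmp9, and the S100a9 interaction from -0.11 to 1.25. The cause of these changes was not tested. A lowest-mean probe set could not be tried, since each member had 1 probe set, and the interaction has no fit with fewer groups. Counts over the gene lists without WT total replicate 3 were added after the data were seen.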
